A study of Rattus norvegicus with 39 samples.

Results

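Livers of rats given Caerulein, DNP or Roziglitazone were compared, as 1 pooled set of 15 arrays, with livers of 9 untreated rats. The 15 arrays were taken by treatment label, 5 per compound, out of 39 arrays in all. The pooled level of a gene is the mean of the 3 compound means. Caerulein, a peptide that drives secretion of the exocrine pancreas, was given at 50 µg/kg in saline by intraperitoneal injection. DNP, by its usual reading dinitrophenol, an uncoupler of mitochondrial respiration, was given at 15 mg/kg in water by mouth. Roziglitazone, as the labels spell the PPARG agonist rosiglitazone, was given at 1000 mg/kg in methylcellulose by mouth. The control rats received neither compound nor vehicle. All rats were 5 to 6 weeks old, and the left lateral lobe of the liver was frozen 48 h after dosing. The other 15 arrays are from rats given ANIT, DMN or NMF, which are known liver toxicants. That the 3 pooled compounds are not primarily liver toxicants is knowledge about the compounds and is not written in the labels.

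The comparison asks what dosing as such does to the liver at 48 h. Because the controls had no vehicle and no gavage or injection, compound, vehicle, route and handling cannot be told apart. The liver is known to respond to handling and altered feeding through several routes. Glucocorticoids and food intake act on clock genes and on fuel metabolism, inflammatory cytokines induce acute phase proteins in hepatocytes, and nuclear receptors that sense foreign compounds induce cytochromes P450 and conjugating enzymes. Genes of these systems were therefore described beside marker genes of cell types. Values are log2 intensities of 14217 genes measured on Affymetrix rat genome arrays. The precision of each value depends on the number of arrays and on the spread between arrays of a group. The p-values set each difference against that spread.

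Some arrays stood apart before any comparison was made. On 5 of the 24 arrays (DNP 1, Roziglitazone 1 and controls 1, 4 and 5) the 5′ GAPDH probe set was dimmer than the 3′ one by more than 1 on the log2 scale, a sign of shortened transcripts. The difference averaged −0.763 ± 1.21 in treated livers (SD, n = 15) and −1.17 ± 1.77 in control livers (SD, n = 9), with p = 0.494 in an exact two-sided permutation test. In beta-actin the 5′ minus 3′ difference was below −1 on the same 5 arrays. It was also below −1 on Caerulein 3 (−1.12), Caerulein 5 (−1.40), DNP 5 (−1.33), Roziglitazone 2 (−1.59) and control 8 (−1.25). Low 5′ signal was thus not confined to the 5 arrays. Over the 24 arrays, the first principal component of the spread within groups held 37.5% of the variance. It correlated at 0.725 with the GAPDH difference. Separately, the array labelled Roziglitazone 2 went against its label. Its deviation from the mean of all other arrays correlated across genes at 0.802 with that of the ANIT mean and at −0.303 with that of the other Roziglitazone arrays. On Roziglitazone 1, 3, 4 and 5 the correlation with ANIT was −0.0439, −0.351, −0.0944 and −0.358. With the others of their group it was −0.221, 0.057, 0.309 and 0.0349, so a low value there was not particular to Roziglitazone 2. Stac3, a gene known mainly for its role at the calcium channels of muscle, was at 6.00 on Roziglitazone 2. It was at 10.71 to 11.31 on the other Roziglitazone arrays and at 5.19 to 6.01 in ANIT livers. Counts of calls are given with and without this array, and so are the pooled differences of single genes that it moved by more than 1.5 times. Among the toxicants, the arrays labelled ANIT 3 and DMN 2 were also treated as in doubt. Stac3 was at 9.79 on DMN 2, against 5.38 to 6.34 in the other DMN livers. On ANIT 3 it was at 5.21, within the range of ANIT livers, and the label of ANIT 3 was not tested here.

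By their overall distance from the control mean, most treated arrays lay as close to it as control arrays lay to each other. The root mean square distance over all genes was 0.320 to 0.386 on Caerulein arrays 1 to 4, 0.533 on Caerulein 5, 0.326 to 0.367 on DNP arrays 2 to 5 and 0.384 to 0.438 on Roziglitazone arrays 3 to 5. It was 0.622 on DNP 1, 0.632 on Roziglitazone 1 and 0.547 on Roziglitazone 2. A control array, set against the mean of the other 8, was at 0.317 to 0.766, with control 5 the farthest. The 4 most distant treated arrays thus lay farther out than 8 of the 9 controls, and 2 of them are arrays with low 5′ GAPDH signal.

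Hepatocyte markers were bright on every array of the treated and control livers. The mean log2 level of the 14 measured hepatocyte markers was 12.97 to 13.58 in treated livers and 13.05 to 13.55 in control livers, and their pooled differences lay between −0.13 and 0.12. Markers of other cells overlapped between the groups as well. For 11 macrophage genes the mean was 9.43 to 9.98 in treated livers and 9.37 to 9.85 in control livers. For 7 neutrophil genes it was 5.74 to 7.36 in treated livers and 6.06 to 6.80 in control livers. For 14 genes of the pancreatic acinar cell, the cell on which Caerulein acts, it was 5.14 to 6.00 in treated livers and 5.38 to 5.77 in control livers. No member of the 11 cell type lists passed the test. In bulk tissue, fewer cells of a type and less RNA per cell cannot be told apart.

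No gene passed the test between the pooled treated livers and the control livers. In limma 0 of 14217 genes (0%) had an adjusted p under 0.05, while 517 genes (3.64%) had an unadjusted p under 0.05, of which 221 (1.55%) were higher and 296 (2.08%) lower in treated livers. The smallest adjusted p in limma was 0.0882, for Pkp2. The median difference over all genes was −0.01. There was also no gene for which the 15 treated arrays lay wholly above or wholly below the 9 controls (0% in each direction), with or without Roziglitazone 2.

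The arrays bounded most differences closely. The 95% interval of the pooled difference lay inside a 2-fold change in either direction for 13933 genes (98%) and reached past it for 284. Its half-width had a median of 0.303 on the log2 scale, or 1.23-fold, and the within-group SD had a median of 0.345. Only 8 genes (0.0563%) had a pooled difference of at least 2-fold, and none of them passed. Without Roziglitazone 2, 2 genes passed (0.0141%), Pkp2 higher and Tubb2a lower, and 564 genes (3.97%) had an unadjusted p under 0.05. When all 31042 probe sets were tested in place of genes, 0 passed without that array (smallest limma adjusted p = 0.0877). With arrays weighted by how closely they follow their group, 39 genes (0.274%) passed, 29 higher and 10 lower in treated livers. The weights of the 5 arrays with low 5′ GAPDH signal were 0.233 to 0.773, and those of Caerulein 5 and Roziglitazone 2 were 0.473 and 0.524.

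**Figure D1:**
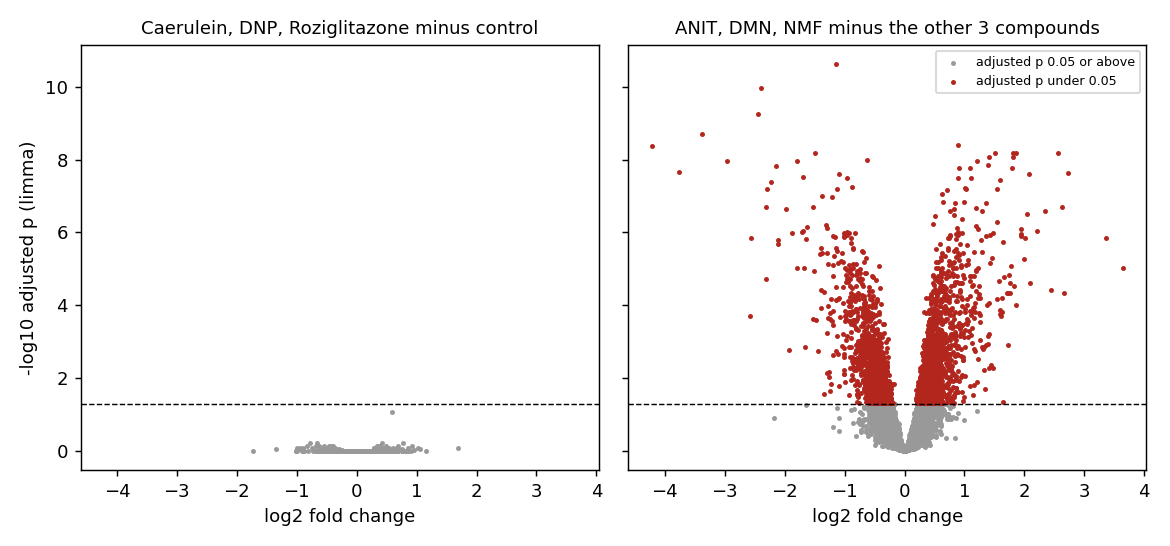
Each point is 1 of 14217 genes, with the log2 fold change on the horizontal axis and −log10 of the limma adjusted p on the vertical axis, and the dashed line at an adjusted p of 0.05. Left, the mean of Caerulein, DNP and Roziglitazone minus untreated control, with 0 genes above the line; right, the mean of ANIT, DMN and NMF minus the mean of the other 3 compounds, with 2695 genes above it.

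Pkp2 encodes plakophilin 2, a protein of the desmosome plaque that joins neighbouring cells. It was at 9.24, 9.36, 9.15, 9.23 and 9.47 in Caerulein livers, at 9.61, 8.92, 9.13, 9.06 and 8.76 in DNP livers, and at 9.27, 8.83, 9.28, 9.14 and 8.74 in Roziglitazone livers, against 8.17 (lowest), 8.61 (median) and 8.89 (highest) in control livers. All 15 treated arrays lay above the control median and 12 of them above every control, so the groups overlapped in 3 treated arrays, 1 from DNP and 2 from Roziglitazone. The pooled difference was 0.59 ± 0.11 (SE), or 1.51-fold, with a 95% interval of 0.36 to 0.82 and a limma adjusted p of 0.0882. Without Roziglitazone 2 it was 0.61 ± 0.11 with an adjusted p of 0.0377, so that Pkp2 rose in that fit. The 3 compounds gave 0.74 (Caerulein), 0.54 (DNP) and 0.50 (Roziglitazone) against the shared controls.

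Tubb2a encodes a beta-tubulin of the microtubules. Its levels were 11.10, 11.35, 10.62, 10.98 and 10.72 in Caerulein livers, 11.33, 10.25, 11.01, 10.62 and 11.05 in DNP livers, and 11.04, 12.15, 10.46, 10.87 and 10.74 in Roziglitazone livers, against 11.22, 11.71 and 11.94 (lowest, median and highest) in control livers. Roziglitazone 2, at 12.15, lay above every control, 12 treated arrays lay below every control, and the remaining 2 lay within the control range. The pooled difference was −0.66 ± 0.16 (SE; limma adjusted p = 0.623) with that array and −0.75 ± 0.14 (adjusted p = 0.0377) without it, so Tubb2a fell only in the second fit. The fall amounted to 1.68-fold.

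**Figure D2:**
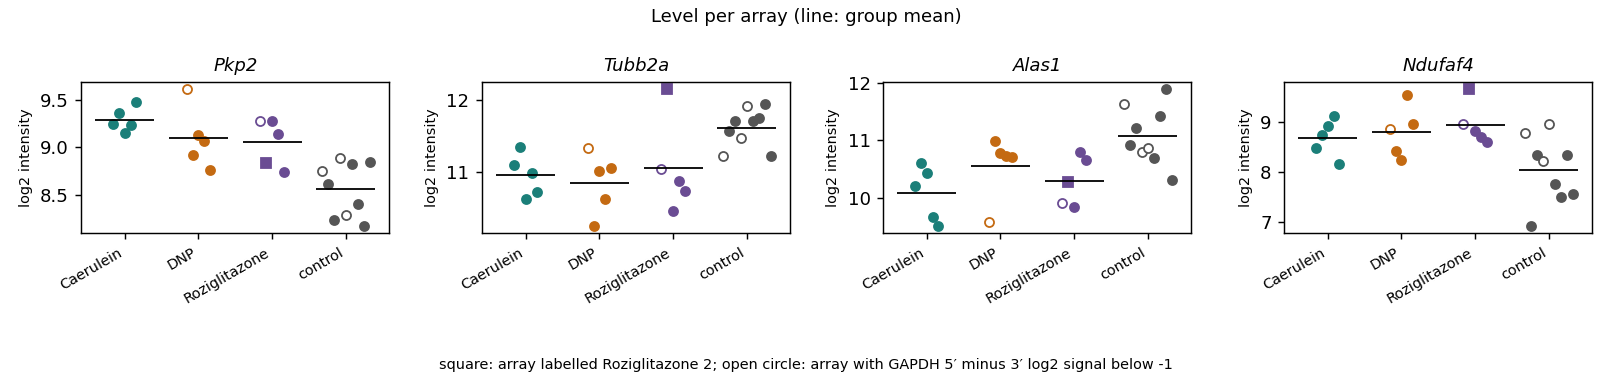
Log2 intensity of Pkp2, Tubb2a, Alas1 and Ndufaf4 on each array, by group, with the group mean as a line; the square is Roziglitazone 2 and open circles are arrays with low 5′ GAPDH signal. Caerulein livers sit above all controls in Pkp2, and the square sits above all controls in Tubb2a.

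Alas1, which encodes the first and rate-limiting enzyme of heme synthesis in the liver, had the smallest p among genes lower in treated livers. It was at 10.20, 10.60, 10.43, 9.66 and 9.51 in Caerulein livers, at 9.57, 10.99, 10.78, 10.73 and 10.71 in DNP livers, and at 9.91, 10.28, 9.84, 10.80 and 10.66 in Roziglitazone livers, against 10.31, 10.92 and 11.89 (lowest, median and highest) in control livers. In 7 treated livers Alas1 was below every control, and in the other 8 it was within the control range. The pooled difference of −0.77 ± 0.18 (SE), or 1.71-fold, did not pass (limma adjusted p = 0.623, and 0.527 without Roziglitazone 2).

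Ndufaf4, which encodes an assembly factor of respiratory complex I, had a larger difference than Pkp2 with more overlap. Its levels were 8.49, 8.75, 8.92, 9.13 and 8.17 in Caerulein livers, 8.87, 8.43, 8.24, 9.54 and 8.96 in DNP livers, and 8.97, 9.66, 8.83, 8.71 and 8.60 in Roziglitazone livers, against 6.93, 8.22 and 8.97 in control livers (lowest, median and highest). Within the control range lay 11 of the 15 treated arrays. Its pooled difference was 0.77 ± 0.19 (SE; limma adjusted p = 0.623), and 0.71 without Roziglitazone 2.

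The remaining genes with the smallest p in each direction also missed the threshold. Nifk and Rsl1d1, which encode nucleolar proteins, had pooled differences of 0.43 and 0.34, and the transcription factor gene Tbx3 had 0.70. All 15 treated arrays lay above the control median in Nifk and in Rsl1d1. The 2 dimmer probe sets of Nifk gave 0.09 and 0.81, with unadjusted p of 0.501 and 0.175 in limma. Those of Tbx3 disagreed: the next brightest gave 0.03 (unadjusted p = 0.872), the one after it 0.03 (unadjusted p = 0.812) and the dimmest 0.51 (unadjusted p = 0.00794). On the lower side were Mgll (monoacylglycerol lipase, −0.46), Cndp2 (a cytosolic dipeptidase, −0.44) and Brcc3-ps7 (annotated as a pseudogene, −0.55, so that its signal may be shared with copies of the parent gene). The dimmer probe sets of Mgll gave −0.23, −0.45 and −0.07, with unadjusted p of 0.641, 0.42 and 0.579 in limma. For the probe sets that stood for these 6 genes the limma adjusted p was 0.623 to 0.754.

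Genes of the circadian clock lay on both sides of the control level. Of 18 measured clock genes, 0 passed and 5 had an unadjusted p under 0.05, beside 3.64% of all genes. Their pooled differences ran from −0.99 to 1.02 with a median of −0.03, against −0.01 for all genes, and for 12 of the 18 the interval stayed inside 2-fold. With the array weights 3 of the 18 passed, Nr1d1 and Nr1d2 higher and Cry1 lower. Apart from Cry1, the clock genes below are shown because of their values.

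Nr1d1 and Nr1d2 encode the REV-ERB repressors, which switch off Bmal1 and its target genes in the clock. Nr1d1 was at 8.18, 8.53, 8.78, 8.38 and 8.04 in Caerulein livers, at 8.40, 8.61, 8.83, 9.14 and 9.17 in DNP livers, and at 8.28, 7.03, 8.04, 9.48 and 9.03 in Roziglitazone livers, against 6.84, 7.25 and 8.55 in control livers (lowest, median and highest). All treated arrays but Roziglitazone 2 lay above the control median, and 8 of 15 lay within the control range. The pooled difference was 0.92 ± 0.26 (SE; limma adjusted p = 0.754) and, without Roziglitazone 2, 1.04 ± 0.24 (adjusted p = 0.527). For Nr1d2 the levels were 7.68, 8.46, 8.74, 7.52 and 6.30 in Caerulein livers, 7.93, 8.47, 8.23, 8.27 and 8.22 in DNP livers, and 8.49, 8.53, 7.24, 8.56 and 8.23 in Roziglitazone livers, against 5.33, 7.22 and 9.21 in control livers. Every treated array lay inside the control range of Nr1d2, whose top value, on control 5, came from an array with low 5′ GAPDH signal. The pooled difference of 1.02 ± 0.30 (SE), or 2.03-fold, became 1.49 when all arrays with low 5′ GAPDH signal were left out. Such fits dropped 8 of the 39 arrays, the 5 named above and also ANIT 5, DMN 3 and NMF 3. Neither Nr1d2 value passed (limma adjusted p = 0.842 and 0.104). Without Roziglitazone 2 it was 0.996. A further Nr1d2 probe set of similar brightness gave 0.95.

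Cry1, a repressor of the CLOCK and BMAL1 pair, and Usp2, a deubiquitinase under clock control, lay on the other side. Cry1 was at 7.51, 7.27, 7.83, 6.91 and 6.88 in Caerulein livers, at 8.05, 6.72, 7.22, 7.71 and 7.63 in DNP livers, and at 8.55, 8.24, 7.48, 7.17 and 6.74 in Roziglitazone livers, against 7.23, 8.36 and 9.11 in control livers (lowest, median and highest). Its pooled difference was −0.82 ± 0.23 (SE; limma adjusted p = 0.754), with 6 treated arrays below every control and 9 within the control range, and it was −0.87 without Roziglitazone 2. Usp2 had treated levels of 6.00 to 8.32 (median 7.09) and control levels of 7.05 to 9.29 (median 8.86), a pooled difference of −0.99 ± 0.30 (adjusted p = 0.842), or −1.06 without Roziglitazone 2. No treated array was above the control median of Usp2. Bmal1, at −0.42 ± 0.20, was the fifth clock gene with an unadjusted p under 0.05.

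Other clock genes had an unadjusted p of 0.05 or more. Per1 and Per3, of the negative limb, gave −0.32 and 0.22. Per2 had no settled direction, with 0.13 for its brighter probe set and −0.43 for the other (unadjusted p = 0.0899 in limma). Without the arrays with low 5′ GAPDH signal the brighter one gave −0.14. Clock gave 0.06 (0.02 without Roziglitazone 2, 0.34 without the arrays with low 5′ GAPDH signal), Npas2, a partner of BMAL1, −0.53, and the PAR bZIP gene Dbp 0.50. In Dbp the lowest arrays of DNP (5.92), Roziglitazone (5.63) and control (4.88) all had low 5′ GAPDH signal. Without all 8 such arrays of the series the Dbp difference was 0.10 (limma adjusted p = 0.998).

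**Figure D3:**
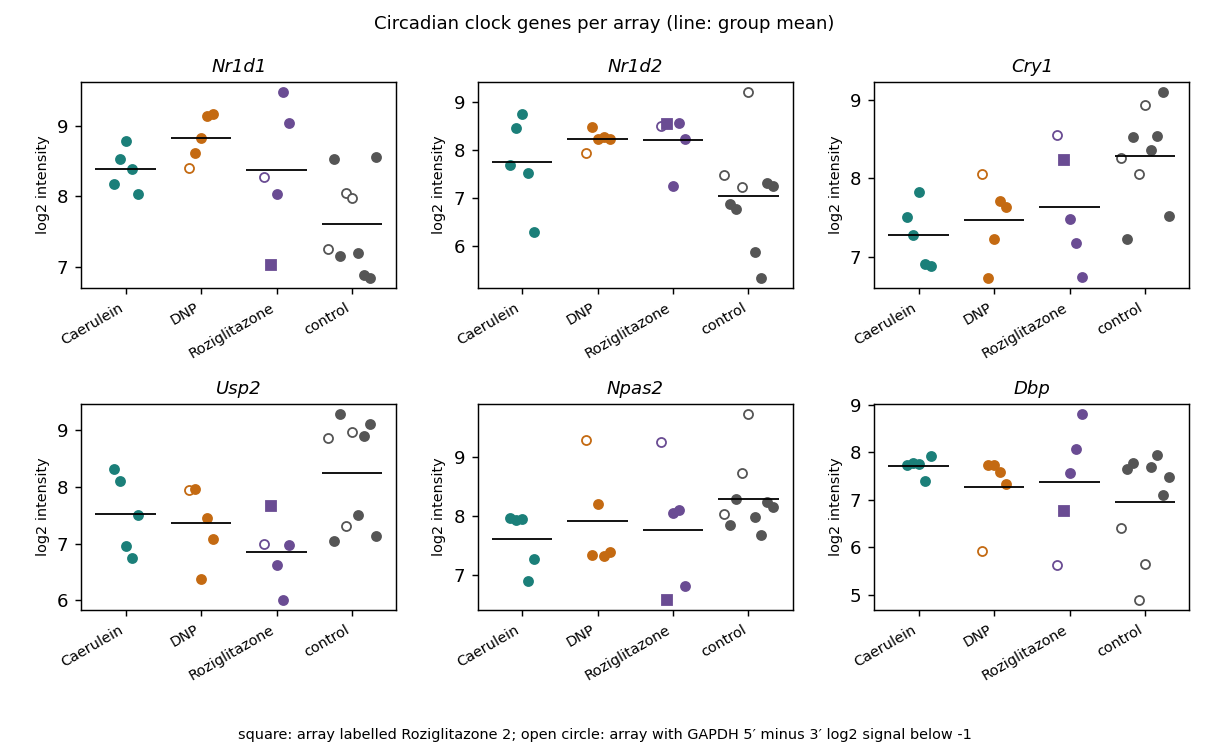
Log2 intensity of 6 clock genes on each array, by group, with the group mean as a line; the square is Roziglitazone 2 and open circles are arrays with low 5′ GAPDH signal. All Nr1d2 values of treated livers fall inside the control range of 5.33 to 9.21, and the Usp2 values of treated livers lie below the control median of 8.86.

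Genes of the glucocorticoid and fasting responses gave no call either. Among 18 glucocorticoid response genes 3 had an unadjusted p under 0.05 and the median difference was −0.15. Tsc22d3, a glucocorticoid-induced leucine zipper gene, was at 8.31 to 10.37 in treated livers and 8.95 to 11.34 in control livers (difference −0.94 ± 0.29 SE, limma adjusted p = 0.842). The metallothionein gene Mt2A went the other way (0.70 ± 0.23, adjusted p = 0.911), and Fkbp5, another target of the receptor, gave 0.09 (0.05 without Roziglitazone 2). In the list of 14 gluconeogenesis and fasting genes, Lpin1, whose product makes diacylglycerol and acts with PPARA, had the smallest p (−0.90 ± 0.31, adjusted p = 0.934). Picked after their values were seen, the rhythmic gene Noct and the transcription factor gene Foxo3 gave −0.98 and −0.89 (adjusted p = 0.901 and 0.842).

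Some acute phase genes were above every control in part of the treated livers, and no member passed between the groups. Lbp was above every control in 7 of the 15 treated livers and below every control in 3. For Orm1 these counts were 6 and 0, for Crp 1 and 0, and for C3 0 and 1. Such counts were not made over all genes, so whether they are particular to acute phase genes was not tested. A2m, whose protease inhibitor is a major acute phase protein of the rat, had the largest positive difference of all genes. It was at 9.19, 11.78, 10.24, 12.60 and 11.78 in Caerulein livers, at 10.11, 11.67, 7.69, 10.68 and 9.64 in DNP livers, and at 9.59, 12.40, 12.70, 9.01 and 9.46 in Roziglitazone livers, against 7.14, 8.89 and 10.55 in control livers (lowest, median and highest). Above every control lay 7 of the 15 treated arrays, with 3 of them from Caerulein. The pooled difference of 1.69 ± 0.52 (SE), or 3.23-fold, did not pass (limma adjusted p = 0.842), and it was 1.54 without Roziglitazone 2.

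Lcn2 encodes lipocalin 2, an iron-scavenging protein of inflammation. It was at 10.87, 11.19, 6.76, 12.62 and 11.56 in Caerulein livers, at 6.69, 6.89, 8.88, 7.04 and 6.39 in DNP livers, and at 7.24, 13.30, 12.89, 6.19 and 9.10 in Roziglitazone livers, against 6.71, 7.95 and 9.71 in control livers (lowest, median and highest). The high livers were 4 given Caerulein and Roziglitazone 2 and 3, whereas all DNP livers stayed below the highest control. Its pooled difference of 1.16 ± 0.68 (SE) had a 95% interval from −0.21 to 2.53, which spans no change, and moved to 0.86 without Roziglitazone 2. Hamp, the iron hormone hepcidin, showed a similar width, with 8.06 to 13.15 in treated livers, 10.15 to 12.08 in control livers and a pooled difference of 0.04 ± 0.41, which turned to −0.10 without Roziglitazone 2. Over the 27 acute phase genes the median difference was 0.07, 0 passed and 2 had an unadjusted p under 0.05, while abundant members such as Hp (0.06), Fgb (0.07) and Crp (0.15) had intervals inside 2-fold. Without the arrays with low 5′ GAPDH signal Crp was at −0.00163.

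**Figure D4:**
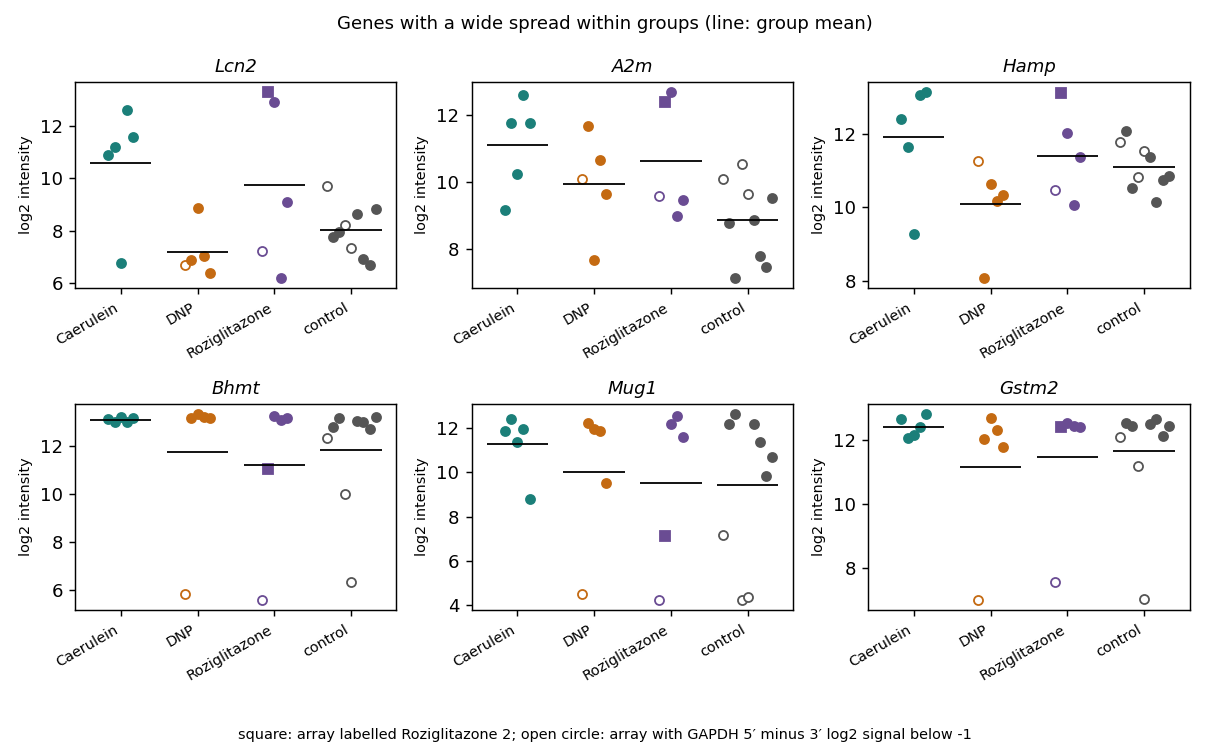
Log2 intensity on each array of 3 acute phase genes (Lcn2, A2m, Hamp) and of 3 further genes with a wide spread within groups (Bhmt, Mug1, Gstm2), by group, with the group mean as a line; the square is Roziglitazone 2 and open circles are arrays with low 5′ GAPDH signal. The acute phase genes are high on 4 Caerulein arrays and on Roziglitazone 2 and 3 in Lcn2, while Bhmt at 5.58 to 6.33 falls on open circles from 3 groups.

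The other genes with a pooled difference of at least 2-fold were also wide in spread. They were chosen after their values were seen. Akr1b7, an aldo-keto reductase gene, was at 4.18 to 7.06 in treated livers and at 5.33 to 9.70 in control livers (difference −1.73 ± 0.64 SE, or −1.80 without Roziglitazone 2). Tsku, which encodes a secreted protein of the liver, had −1.35 ± 0.44 and moved to −1.57 without Roziglitazone 2, its highest treated array at 11.23. Serpina7, the thyroxine-binding globulin gene, had 1.06 ± 0.34, the growth regulator gene Myc −1.005 ± 0.44, and RGD1309362 −1.01 ± 0.53. In Akr1b7, Tsku, Serpina7, Myc and RGD1309362 the treated arrays overlapped the controls, with 8, 12, 10, 11 and 11 of 15 inside the control range.

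Metabolic genes of the hepatocyte stayed near the control level. Among 25 xenobiotic cytochromes P450 the median difference was −0.02, and the interval stayed inside 2-fold for 23. Por, the reductase that feeds electrons to these enzymes, had the smallest p of that list (0.23 ± 0.12 SE). The median was 0.00 for 25 conjugation enzymes, with the sulfotransferase gene Sult1b1 at 0.23, 0.07 for 13 genes of bile acid synthesis, and 0.01 for 16 hepatic transporters. For 28 urea cycle and amino acid genes it was −0.06, with the argininosuccinate lyase gene Asl at 0.28. All of these lists had 0 genes past the threshold. Without Roziglitazone 2 the medians were 0.01 for the cytochromes P450, 0.07 for the transporters and 0.02 for the urea cycle list.

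Lipid genes were likewise without a call. The 20 lipogenic genes had a median of −0.17 and 2 with an unadjusted p under 0.05, Scd at −0.57 and Tkfc at −0.38. The 22 PPARG target and lipid droplet genes, the direct targets of a PPARG agonist, had −0.18 in Roziglitazone livers and −0.07 over the 3 compounds. Cidec, a lipid droplet gene, had the smallest p of that list (−0.24 ± 0.12 SE). The 27 PPARA target and fatty acid oxidation genes had a median of 0.06, with Decr1, a reductase of unsaturated fatty acid oxidation, at 0.32. In cholesterol synthesis the median was −0.02 (−0.12 without Roziglitazone 2) and Insig1, which holds the sterol sensor in the endoplasmic reticulum, was at −0.91 ± 0.36.

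Stress and growth lists gave medians from −0.12 (interferon response) to 0.00 (chemokines and inflammation) and no call. Without Roziglitazone 2 they ran from −0.15 (immediate early genes) to 0.04 (growth hormone dependent genes). Members with the smallest p were Hspa1a (an inducible heat shock protein gene, −0.99), Jund (an AP-1 subunit gene, −0.68), Sesn2 (a stress-induced regulator of growth, −0.50), Cish (a growth hormone induced inhibitor, −0.73), Cxcl10 (an interferon-induced chemokine gene, −0.49) and Ccnb1 (a mitotic cyclin gene, −0.34). The NRF2 target Hmox1, heme oxygenase, was at 0.53, or 0.39 without Roziglitazone 2. Cdkn1a, the cell cycle inhibitor on the p53 list, was at −0.82 ± 0.29 (limma adjusted p of 1, and 0.764 without Roziglitazone 2). The stellate cell and matrix list had a median of −0.17, with the collagen gene Col1a1 at −0.68 ± 0.25 (limma adjusted p of 1). With array weights and without Roziglitazone 2, both passed, Cdkn1a at −1.04 (adjusted p = 0.0299) and Col1a1 at −0.97 (adjusted p = 0.0325). In the other cell type lists the smallest p belonged to the bile duct keratin gene Krt19 (−0.42), the macrophage gene Gpnmb (0.44), the fibrinogen gene Fga (0.12), the T cell kinase gene Lck (−0.14), the endothelial receptor gene Tek (−0.21), the hemoglobin chaperone gene Ahsp (−0.50), the pancreatic carboxypeptidase gene Cpa1 (−0.27), the fat droplet gene Plin1 (−0.24) and the myoglobin gene Mb (0.27). In the remaining metabolic lists it belonged to Hk1 (a hexokinase, −0.25), Acox2 (an oxidase of the bile acid side chain, −0.31, or −0.20 without Roziglitazone 2), Slc22a8 (an organic anion transporter, −0.31, or −0.19 without it) and Ndufb5 (a complex I subunit, −0.23). None of these 13 passed in the unweighted fit.

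Taken one at a time, the 3 compounds gave no call against the same 9 controls, which they share. In limma 0 genes passed (0%) for each, while 541 (3.81%), 199 (1.4%) and 1044 (7.34%) had an unadjusted p under 0.05 in Caerulein, DNP and Roziglitazone livers. Without Roziglitazone 2 the last count was 872 (6.13%). Differences among the compounds were tested directly. In limma's F test among the 3 compounds, which uses no control array, 0 genes passed (0%), 576 (4.05%) had an unadjusted p under 0.05 and the smallest adjusted p was 0.908. Without Roziglitazone 2, 441 genes (3.1%) had an unadjusted p under 0.05. Lcn2, at 2.58, −0.83 and 1.73 in Caerulein, DNP and Roziglitazone livers against control (0.84 in Roziglitazone livers without Roziglitazone 2), had an unadjusted p of 0.00507 in that test and did not pass over all genes (limma adjusted p = 0.908).

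The same fit did call genes between the liver toxicants and the 3 pooled compounds. In limma 2695 of 14217 genes (19%) passed in the mean of ANIT, DMN and NMF minus the mean of Caerulein, DNP and Roziglitazone, 1375 higher (9.67%) and 1320 lower (9.28%) in toxicant livers, and 3066 (21.6%) passed without Roziglitazone 2. Leaving out ANIT 3 and DMN 2 together with Roziglitazone 2 gave 3191. This contrast has 15 arrays on each side, where the comparison with the controls has 15 against 9. The median over all genes was −0.05.

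By list, the higher side held many NRF2 targets, cell cycle genes and p53 targets, beside 9.67% of all genes higher. Other stress lists ranged widely. Of 27 genes of endoplasmic reticulum stress and ATF4, 13 were higher and 1 lower. Of 30 chemokine and inflammation genes, 5 were higher and 5 lower. NRF2 targets, genes of the defence against electrophiles, had 15 of 22 higher in toxicant livers and 1 lower, with a median of 0.62, beside 0 called and −0.04 for the pooled compounds against control. Gpx2, a glutathione peroxidase gene, averaged 7.69 ± 2.01 in toxicant livers, 5.07 ± 0.94 in livers of the 3 pooled compounds and 4.99 ± 0.42 in control livers (SD, n = 15, 15 and 9), a difference of 2.62 ± 0.32 (SE; limma adjusted p = 1.99e-07) of toxicant minus pooled livers. Of 36 cell cycle genes 22 were higher and 1 lower, with the replication gene Mcm6 at 7.24 ± 1.12 in toxicant, 5.03 ± 0.80 in pooled and 5.36 ± 0.67 in control livers. Of 16 p53 targets 11 were higher and 1 lower, with Phlda3 at 10.76 ± 0.54, 9.37 ± 0.55 and 9.50 ± 0.27 in the same order. The limma adjusted p of toxicant minus pooled livers was 8.89e-07 for Mcm6 and 1.40e-08 for Phlda3.

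On the lower side were several, but not all, lists of hepatocyte metabolism, beside 9.28% of all genes lower. Among 21 growth hormone dependent genes 13 were lower in toxicant livers and 0 higher (median −0.80, against −0.02 for the pooled compounds and control). Akr1c1, a hydroxysteroid dehydrogenase gene, averaged 6.97 ± 1.73 in toxicant, 10.73 ± 0.60 in pooled and 10.54 ± 0.70 in control livers. In further lists 17 of 28 urea cycle and amino acid genes, 14 of 25 cytochromes P450 and 13 of 20 lipogenic genes were lower and 0 higher. Conjugation enzymes went the other way, with 9 of 25 higher and 2 lower. Of 27 PPARA target and fatty acid oxidation genes 5 were higher and 5 lower, and of 16 hepatic transporters 4 were higher and 7 lower. Oat, ornithine aminotransferase, was at 9.67 ± 0.40 in toxicant, 12.07 ± 0.78 in pooled and 12.19 ± 0.22 in control livers, and the desaturase gene Scd at 9.66 ± 1.29, 12.11 ± 0.77 and 12.67 ± 0.47. Between toxicant and pooled livers the limma adjusted p was 2.19e-08 for Akr1c1, 1.12e-10 for Oat and 5.53e-10 for Scd.

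**Figure D5:**
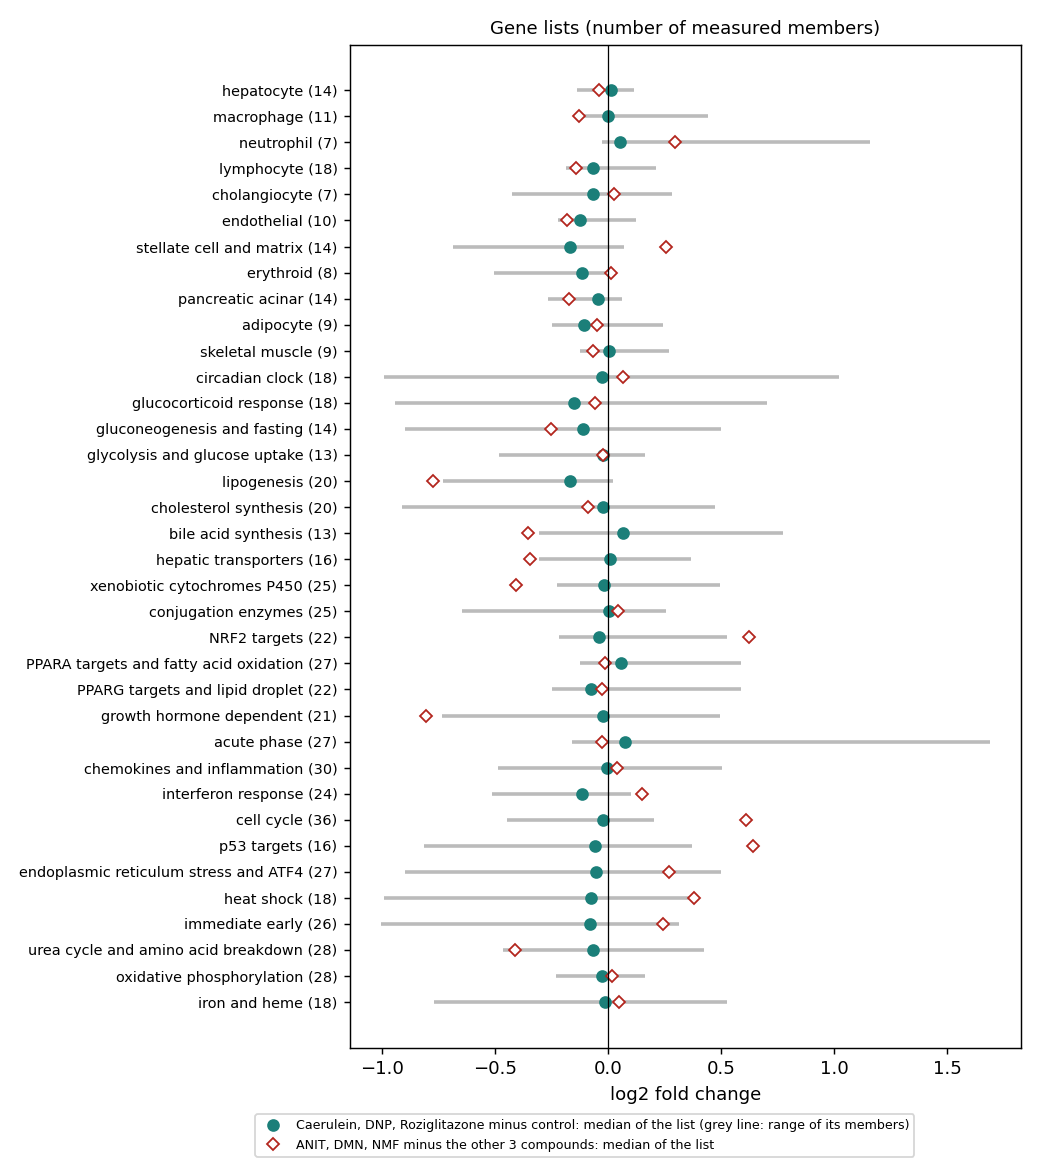
Median log2 fold change of each of 36 gene lists, with the number of measured members in brackets; filled circles are the 3 pooled compounds minus control, the grey line is the range of the members in that comparison, and open diamonds are the toxicants minus the 3 pooled compounds. The circles run from −0.17 to 0.07, while the diamonds reach 0.64 for p53 targets and −0.80 for growth hormone dependent genes.

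For 11 genes named above in the pooled comparison, the toxicant livers are set beside the other groups here. Both contrasts use the same 15 treated arrays, and these genes were picked for their values there, so the second contrast is no independent check of the first. Pkp2 averaged 8.61 ± 0.29 in toxicant, 9.15 ± 0.25 in pooled and 8.55 ± 0.29 in control livers, and it was lower in toxicant than in pooled livers by 0.54 (limma difference −0.54 ± 0.10 SE, adjusted p = 1.02e-04). Tubb2a averaged 11.83 ± 0.38, 10.95 ± 0.45 and 11.61 ± 0.27 in the same order, and Usp2 8.19 ± 0.70, 7.25 ± 0.68 and 8.24 ± 0.95. Nr1d1 averaged 7.68 ± 0.69 in toxicant, 8.53 ± 0.60 in pooled and 7.60 ± 0.68 in control livers (SD, n = 15, 15 and 9). Akr1b7 was lowest in the pooled livers, at 9.20 ± 2.24 in toxicant, 5.56 ± 0.96 in pooled and 7.29 ± 1.74 in control livers. Tubb2a, Usp2 and Akr1b7 were thus higher and Nr1d1 lower in toxicant livers. These 4 genes passed between toxicant and pooled livers, with limma adjusted p of 1.54e-05 (Tubb2a), 0.00954 (Usp2), 0.00604 (Nr1d1) and 9.25e-06 (Akr1b7).

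For the other 6 genes the toxicant mean lay on the same side of the control mean as the pooled mean. No difference between toxicant and pooled livers passed in these genes. Nifk averaged 9.74 in toxicant, 9.72 in pooled and 9.29 in control livers, and Ndufaf4 averaged 9.002, 8.82 and 8.05 in the same order. Alas1 averaged 10.51 in toxicant, 10.31 in pooled and 11.08 in control livers. Of the clock genes, Cry1 averaged 7.75 in toxicant, 7.46 in pooled and 8.28 in control livers, and Nr1d2 8.27, 8.06 and 7.03. A2m averaged 10.65 in toxicant, 10.57 in pooled and 8.88 in control livers. The toxicants were unlike in A2m. NMF livers were at 7.90, 9.84, 9.73, 7.67 and 6.95, whereas ANIT livers were at 11.98 to 12.34 and DMN livers at 9.17 to 13.13. The limma adjusted p of toxicant minus pooled livers was 0.880 (Nifk), 0.466 (Ndufaf4), 0.390 (Alas1), 0.326 (Cry1), 0.620 (Nr1d2) and 0.928 (A2m).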

How the data were processed

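Liver RNA of 39 rats in 7 groups was hybridised to Affymetrix rat genome arrays. The authors deposited intensities per probe set, not log-transformed (5.4 to 23152.1), and array means were 348 to 363. RMA and the affy package are named, without versions, per the submitters' processing notes; how a linear scale was reached is not given in the sources used here, and the genome build likewise. The log2 was taken here, where the plan had assumed log2 values on deposit.

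Of 31099 probe sets, 20826 have 1 gene symbol in the platform annotation, 436 several and 9780 none; 57 are controls. RefSeq's rat gene table gave current symbols for 20758 of them, and 68 kept the older one. The brightest probe set stood for each gene with several, leaving 14217 genes with no filter. All 39 arrays entered 1 limma fit of group means (version 3.58.1, lmFit and eBayes, in R 4.3.3), which was checked on simulated data. Adjustment was by Benjamini-Hochberg over all genes, and a gene passed at an adjusted p under 0.05. Exact permutation tests used scipy 1.17.1. Fold changes are treated over control.

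Gene lists, 36 in all, were described by counts and medians. Members and lists were chosen with earlier results of these data known. Genes were named as the 5 smallest p per direction, up to 3 called members of each list per direction or else its member with the smallest p, the called genes with the largest changes (none in the pooled fit), and any gene whose call changed without Roziglitazone 2; others are said to be chosen after their values were seen. Arrays of a group are labelled biological replicates. Alternatives in scaling, filtering, weights, probe sets and samples are given in the closing section. Means of the poly-A spikes, which lie near background, were 3.49 to 6.47, the highest being that of 1 spike alone.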

Additional observations from a re-analysis of the deposited data

Results flagged for a closer look

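In 13 of 92 groups of arrays tested (14.1%), over the 22 genes shown by array and the GAPDH measure, 1 array lay far from the others of its group by Dixon's criterion. For unselected values chance flags about 1 in 20. Genes such as Bhmt and Tsku were shown because of their spread or values, so these rates cannot be compared. Bhmt, a methyltransferase gene of the liver, was lowest at 5.85 on DNP 1 (next lowest 13.16), at 5.58 on Roziglitazone 1 (next 11.03) and at 6.33 on control 5. These 3 arrays are among the 5 with low 5′ GAPDH signal. In the GAPDH difference of 5′ minus 3′ itself, the arrays that stood apart in their groups were DNP 1 at −2.75, Roziglitazone 1 at −4.42 and control 4 at −5.64. Alas1 was at 9.57 on DNP 1, against 10.71 on the next array.

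Roziglitazone 2 stood apart in Tsku, at 11.23 against 8.14 on the next highest array of its group. Caerulein 4 was lowest in its group for Tsku, at 7.30 (next 8.54), and highest for Rsl1d1, at 9.62 (next 9.16). Nifk was at 9.64 on control 4 (next 9.34), Lcn2 at 8.88 on DNP 3 (next 7.04) and Nr1d2 at 7.24 on Roziglitazone 3 (next 8.23). The part of RNA quality in these values was not tested.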

How the results depend on the processing

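The pooled comparison with control gave 0 calls and stayed at 0 in 36 of 42 alternatives. Among these 36 were centring each array on its median, quantile normalization, dropping the dimmest 30% of genes, an offset of 16 and a trend in the variance. Others of the 36 were the mean of a gene's probe sets, GAPDH as a covariate and leaving out the arrays with low 5′ GAPDH signal. The last of these was chosen after seeing the data. Over all settings, with and without calls, the unadjusted limma p fell under 0.05 for 407 to 1698 genes. The fits with array weights gave 1669 and 1698, and the most in a setting with 0 calls was 902. Leaving out 1 array gave 0 to 2 calls: Pkp2 passed without DNP 5 or control 4 (1 call each), and Pkp2 and Tubb2a without Roziglitazone 2 (2) or without ANIT 3, DMN 2 and Roziglitazone 2 together (2). Array weights, which trust divergent arrays less, gave 39 calls, 29 higher and 10 lower, all with the same sign and an unadjusted p under 0.05 in the unweighted fit, and 45 without Roziglitazone 2, a setting chosen after seeing the data; Nr1d1, Nr1d2, Cry1, Ndufaf4, Tbx3, Pkp2 and Tubb2a are among the 39. With weights Caerulein gave 5 calls (5 without Roziglitazone 2), Roziglitazone 9 (15) and the toxicants minus pooled contrast 4491 (4667). Leaving out 1 array gave 0 to 1 calls for Caerulein (1 without Caerulein 3) and 2255 to 3066 for the toxicants minus pooled contrast. DNP and the test among compounds had 0 calls in every setting run. For the 49 genes named by rule or at least 2-fold apart, 2054 alternatives gave 0 changes of sign and 25 new passes. These genes were picked for their values, and the alternatives, the weighted fit among them, use largely the same arrays. A kept sign is therefore no independent check. For the 24 other genes named for this comparison, 1007 alternatives gave 13 new passes and 28 changes of sign, in 5 genes near no change. Hamp gave −0.2106 with the replicate block, −0.3465 without Caerulein in the mean, −0.09443 without Roziglitazone in it, −0.1008 without the 3 doubted arrays, −0.0006721 without both the low 5′ GAPDH arrays and Roziglitazone 2, and −0.03409 with weights and without Roziglitazone 2. Clock gave −0.3275 with the block, −0.01881 without DNP in the mean and −0.0528 without Roziglitazone in it. Per2 gave −0.1504 as the mean of its probe sets, −0.1418 without the low 5′ GAPDH arrays and −0.07469 without Roziglitazone 2 as well. Crp gave −0.001634 without the low 5′ GAPDH arrays and Fkbp5 −0.001247 without Caerulein in the mean. Leaving out 1 array gave −0.1008 to 0.2611 for Hamp, −0.05553 to 0.2532 for Clock and −0.03874 to 0.1825 for Fkbp5. Members of lists passed in 4 lists: 3 clock genes with weights, and with weights and without Roziglitazone 2 again 3 clock genes and 1 each in the stellate cell and matrix list (Col1a1) and in the glucocorticoid response and p53 lists (Cdkn1a in both). Over all 31042 probe sets 0 passed, with or without Roziglitazone 2. When the replicate number entered as a block, the pooled comparison had 0 calls and the toxicants minus pooled contrast 2867. The numbers were not taken to pair the arrays, because the labels state no pairing. Of 30 same-numbered pairs 18 correlated above 0.1, in a range of −0.466 to 0.785. Among the 6 pairs of groups, only DNP with Roziglitazone had all 5 above 0.1. Of 20 arrays 9 correlated best with their own number among the 5. Whether same-numbered arrays share a batch was not tested. The number of arrays and the spread within groups limit all of these values.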

Other observations

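Genes that passed in the pooled comparison only with array weights were read after their values were seen and are given as values, weighted first. Higher in treated livers were Utp14a (a factor of small ribosomal subunit assembly, 0.45 ± 0.09 SE, limma adjusted p = 0.0210; 0.37 unweighted), Prox1 (a transcription factor of hepatocytes, 0.49 ± 0.11, adjusted p = 0.0315; 0.28 unweighted) and Eprs1 (a tRNA synthetase, 0.40 ± 0.09, adjusted p = 0.0315; 0.29 unweighted). Lower were the matrix genes Mfap4 (−0.92 ± 0.20; −0.67 unweighted) and Mgp (−0.79 ± 0.18; −0.52 unweighted), with adjusted p of 0.0315 and 0.0317. In the unweighted fit none of these 5 passed, and all 15 treated arrays lay within the control range of Prox1 and of Mgp.

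The 9780 probe sets with no gene symbol held 0 calls in limma for the pooled comparison, and 208 of them (2.13%) had an unadjusted p under 0.05.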
